A study of Mus musculus with 8 samples.

Results

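The 9 genes described here make or mark the cells that build and repair skeletal muscle. They are Pax7, the 4 myogenic regulatory factors Myf5, Myod1, Myog and Myf6, the adhesion gene Cdh15 (M-cadherin), and the MEF2 genes Mef2a, Mef2c and Mef2d. They were chosen by name, as the rows of the count files whose Ensembl identifiers carry these symbols, and all 9 were found among the 49315 genes of each file. All 9 also had enough reads to enter the tests, which covered 19571 genes. The RNA was total RNA of whole gastrocnemius, a calf muscle, from C57BL/6 mice, frozen at 3, 12, 24 or 30 months of age, with 2 libraries at each age and 8 in all. No allele, transgene or agent is named in the labels for any group, and age is the factor that separates them. Whether both libraries at an age are from different mice is not stated in the labels, and a p-value here therefore measures only how these libraries spread, which may be technical.

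Satellite cells are the stem cells of skeletal muscle and lie between a fibre and its basement membrane. PAX7 marks them while they rest, and MYF5 and MYOD1 commit their progeny to the muscle lineage. Myogenin, the product of Myog, switches on terminal differentiation, and MRF4, the product of Myf6, is the myogenic factor most expressed in mature fibres. These 4 factors are basic helix-loop-helix proteins that pair with E proteins and bind E-boxes, short DNA words of the form CANNTG. MEF2 proteins bind beside them on many muscle genes, and M-cadherin joins a satellite cell to its fibre.

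The 4 myogenic factors are relatives, and a stretch of their coding sequence shows how alike and how separable their reads are. The windows below are 60 coding bases in the part that encodes helix and loop, read 5′ to 3′ from GRCm38 with GENCODE M21 transcripts; each lies within exon 1 of 3, and capitals mark bases that differ from Myod1.
Myod1, chr7:46377087-46377146, plus strand: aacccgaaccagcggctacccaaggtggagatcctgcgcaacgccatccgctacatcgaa
Myf5, chr10:107485536-107485595, minus strand: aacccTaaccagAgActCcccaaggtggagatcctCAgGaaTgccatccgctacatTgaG
Myog, chr1:134290386-134290445, plus strand: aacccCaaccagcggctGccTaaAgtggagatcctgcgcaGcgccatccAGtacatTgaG
Myf6, chr10:107494279-107494338, minus strand: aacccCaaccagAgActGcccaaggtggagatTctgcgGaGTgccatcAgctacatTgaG
Of the 60 bases, Myf5 shares 50 with Myod1, Myog shares 51 and Myf6 shares 49. Across whole transcripts the longest run of identical bases was 26 between Myf5 and Myod1 and 21 between Myod1 and Myog. The MEF2 genes are closer to each other, as a window in the part that encodes the MADS and MEF2 domains shows, with capitals for bases that differ from Mef2c.
Mef2c, chr13:83592877-83592936, plus strand: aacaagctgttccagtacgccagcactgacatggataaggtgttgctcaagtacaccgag
Mef2a, chr7:67295420-67295479, minus strand: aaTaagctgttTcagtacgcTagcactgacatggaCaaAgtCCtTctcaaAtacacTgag
Mef2d, chr3:88156421-88156480, plus strand: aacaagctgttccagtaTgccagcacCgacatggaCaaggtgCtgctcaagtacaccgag
Mef2a shares 50 of the 60 bases with Mef2c and Mef2d shares 56, and the longest identical run between 2 members, 28 bases, was between Mef2c and Mef2d.

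In the files' own GRCm38 coordinates, Pax7 (ENSMUSG00000028736) spans chr4:139737062-139833528 and Cdh15 (ENSMUSG00000031962) spans chr8:122847966-122867397. Myf5 (ENSMUSG00000000435, chr10:107482908-107486134) and Myf6 (ENSMUSG00000035923, chr10:107492860-107494729) are neighbours on the minus strand, 6726 bases apart. Myod1 (ENSMUSG00000009471) lies at chr7:46376474-46379099 and Myog (ENSMUSG00000026459) at chr1:134289989-134292548. The MEF2 genes are long: Mef2a (ENSMUSG00000030557) spans chr7:67231163-67372858, Mef2c (ENSMUSG00000005583) spans chr13:83504034-83667080, and Mef2d (ENSMUSG00000001419) spans chr3:88142372-88172086. The sources used here do not give whether reads were counted by strand. Mef2d shares 531 of its 5985 exonic bases with the antisense gene 1700113A16Rik, and Mef2a shares 302 of its 14681 with Lysmd4 on the opposite strand, so reads there cannot be assigned to either strand. Gm20388 overlaps Cdh15 with no shared exonic base and had 0 counts in every library.

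Library totals ran from 42404254 to 59245029 counts. Muscle fibre genes dominated every library, matching the labelled tissue, with a summed level of 99230 to 193900 CPM over 10 genes led by Myh4 and Ckm; CPM is the share of a library's counts on the usual scale of counts per 1e+06, with TMM factors applied. Other facts of the libraries bear on the values below. Transcripts of 9 kidney genes, led by Lrp2 and Slc34a1, summed to 2.93 to 35.9 CPM (without TMM factors) in both 3-month libraries, replicate 1 at 12 and at 24 months, and replicate 2 at 30 months, and to 0.101 to 0.432 in the other 3. The same 3 libraries stood apart in clock genes: the log2 difference between the clock-output genes (Dbp, Tef, Nr1d1, Nr1d2, Per3) and Arntl, Npas2 and Clock was 3.62 to 4.17 in them and 0.470 to 1.87 in the other 5. Replicate 2 at 30 months had the lowest muscle fibre sum, 99230 CPM, and the highest sum of 10 macrophage and monocyte genes, 388 CPM against 137 to 235 CPM elsewhere.

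Per kilobase of exon, the scale on which genes can be compared, Myf6 and Mef2c were the most abundant of the 9, with medians over the 8 libraries of 46.5 and 44.5 CPM per kilobase. Their ranges, 41.3 to 59.4 and 38.8 to 60.3, lay on top of each other, and neither overlapped with the next gene. Mef2d followed with a median of 15.2, Myod1 with 9.65 and Mef2a with 8.10 CPM per kilobase. Ranges of neighbours in this middle stretch overlapped: 10.9 to 16.6 for Mef2d, 7.49 to 16.7 for Myod1 and 7.61 to 11.7 for Mef2a. Cdh15 had a median of 5.05, with a range of 3.55 to 8.11 that overlapped with Mef2a above it and with Myog below it. Myog had a median of 2.86 and a range of 2.32 to 7.09 CPM per kilobase. The stem cell genes lay lowest and apart from Myog. Myf5 had a median of 0.568 and Pax7 of 0.340 CPM per kilobase, with touching ranges of 0.443 to 0.823 and 0.269 to 0.454. Mef2a and Mef2c have exonic lengths summed over many transcript forms, which lowers their level per kilobase relative to a single form.

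**Figure D1:**
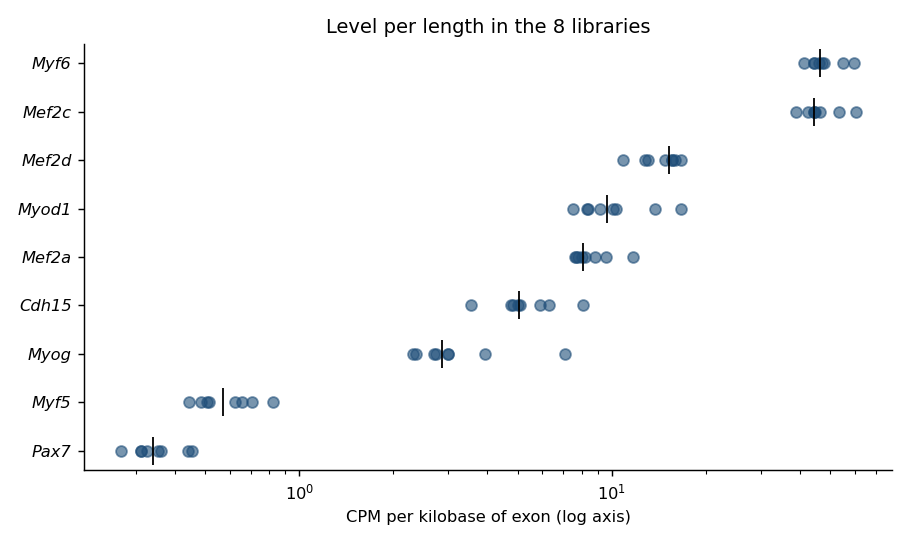
Level of each gene per kilobase of exon (CPM per kilobase, log axis) in the 8 libraries, genes ordered by median. Myf6 and Mef2c sit near 45 and Pax7 lowest at a median of 0.340.

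Against 3 months, no member passed the test at any age. The test was edgeR's quasi-likelihood test with a call at a Benjamini-Hochberg adjusted p under 0.05 over all genes tested. At 12 against 3 months 0 of 9 members were called, where 0.0409% of all genes were; at 24 against 3 months 0 of 9, where 0.102% were; and at 30 against 3 months 0 of 9, where 0.148% were. For 30 against 12 months 0 of 9 were called beside 0.00511% of all genes, for any difference across the 4 ages 0 of 9 beside 0.0613%, and for a slope on age in months 0 of 9 beside 0.133%. With backgrounds this low, a count of 0 among 9 genes does not set them apart from the rest. DESeq2 called 0 of 9 in each of the 6 tests too, with backgrounds of 0.332%, 0.718%, 1.14%, 0.336%, 1.18% and 1.52% in the same order. With the library set, defined by the kidney genes above, as a term in the edgeR model, 0 of 9 were called in each test as well, beside 0.148%, 0.363%, 2.13%, 0.281%, 1.04% and 1.51% of all genes. At an unadjusted p under 0.05, Myod1 was the 1 member reached in 12 against 3 months (all genes 5.5%), in 30 against 12 months (5.21%) and across the ages (5.66%). Myog was the 1 member reached in the slope (9.83%), and none was reached in 24 against 3 (7.56%) or 30 against 3 months (8.52%). Without replicate 2 at 30 months Myog was no longer reached in the slope, while Mef2a and Mef2c were (unadjusted p of 0.0352 and 0.0374; 10.7% of all genes).

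The members' fold changes leaned to higher values at the older ages. At 24 against 3 months all 9 were positive, with a median log2 fold change of 0.33 against 0.01 over all genes tested. The medians at 12 and at 30 against 3 months were 0.13 and 0.15, with 8 of 9 positive in each, and all 3 comparisons share the 3-month libraries. Both 3-month libraries had kidney genes above 1 CPM. With the library set in the model the medians were 0.07 at 12 months (8 of 9 positive) and 0.09 at 30 months (6 of 9). Without replicate 2 at 30 months as well they were 0.07 (5 of 9) and -0.015 (4 of 9). The 1 library then left at 30 months had kidney genes below 1 CPM, unlike those at 3 months. The 30 against 3 month value of that fit therefore rests on the set difference at 12 and 24 months. The part of the library set in the lean was not tested. All 9 stayed positive at 24 against 3 months in both of these fits, with medians of 0.25 and 0.17. Between 30 and 12 months, a comparison without the 3-month libraries, the median was 0.02 with 6 of 9 positive. At 24 months replicate 2 made the lean larger: without it 7 of 9 were positive with a median of 0.14, Myf5 (-0.14) and Myf6 (-0.11) being negative and Pax7 (0.53) and Myod1 (0.26) positive, and without replicate 1 all 9 were positive with a median of 0.55, Mef2a and Mef2c each at 0.57. That library was the highest of the 8 for 4 members (Myf5, Myf6, Mef2a and Mef2c) and for 20.1% of all genes tested.

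**Figure D2:**
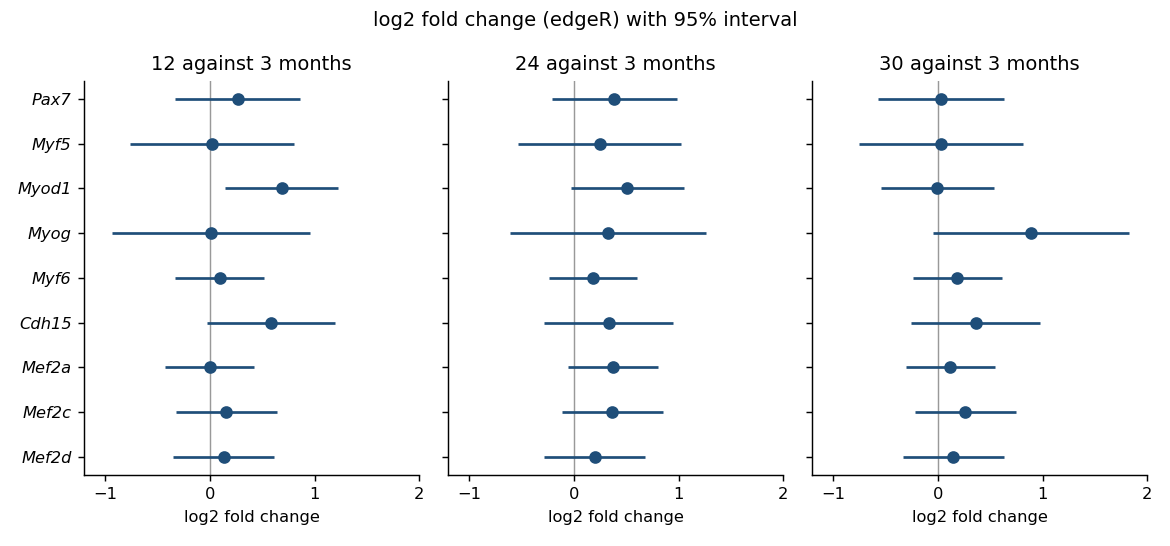
log2 fold change of each gene (points) with its 95% interval (lines) from edgeR's quasi-likelihood model over 8 libraries. The panels show 12, 24 and 30 against 3 months. The Myod1 interval lies above 0 at 12 against 3 months and spans 0 at 24 and at 30 against 3 months. No gene passed the adjusted threshold.

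Ranges of 2 libraries separate easily, so they are read against all genes. The 12-month libraries lay wholly above the 3-month ones for 3 members (Myod1, Myf6 and Mef2c), where 19.3% of all genes did and 19.2% lay wholly below. The 24-month libraries lay wholly above for 4 members (Pax7, Myod1, Mef2a and Mef2c; 20% of all genes above and 19.4% below). The 30-month libraries did so for 2 members (Myf6 and Mef2c; 21.1% above and 20.2% below). Between 30 and 12 months 1 member separated, Myod1, which was lower at 30 months, as 15.7% of all genes were, while 16.1% were higher.

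**Figure D3:**
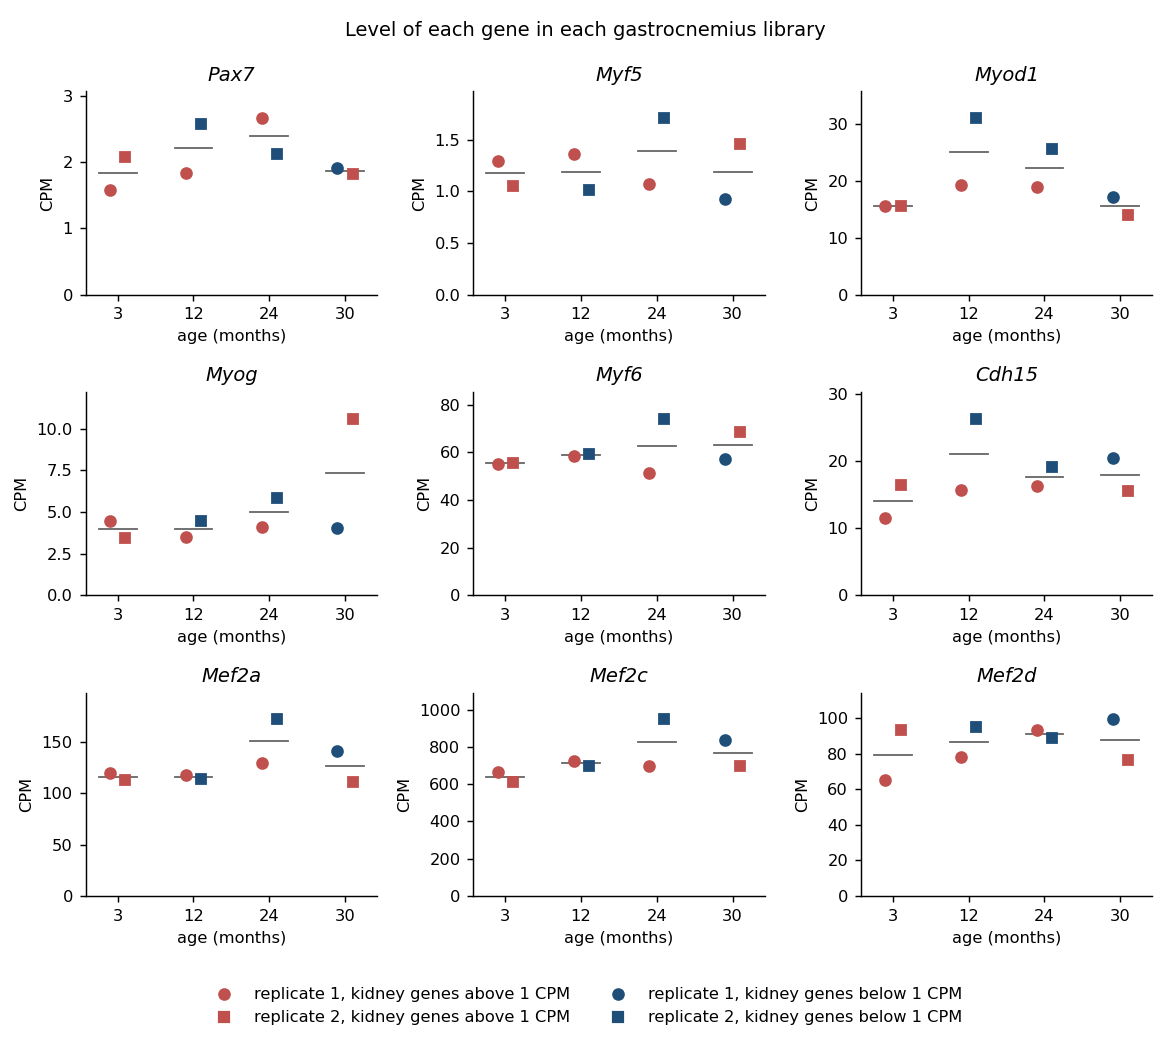
Level of each gene in each library (CPM; circles are replicate 1, squares replicate 2; bars are means of 2 libraries; red and blue mark summed kidney gene levels above and below 1 CPM). Replicate 2 at 30 months stands alone for Myog at 10.6 CPM, and replicate 2 at 12 months is highest for Myod1 and Cdh15.

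Pax7, the satellite cell marker, had 1.58 and 2.08 CPM at 3 months, 1.83 and 2.57 at 12, 2.66 and 2.12 at 24, and 1.91 and 1.82 at 30 months, replicate 1 first here and below. The mean was highest at 24 months, where the libraries overlapped with those at 12 months. Both 30-month libraries lay inside the range of the 3-month ones. These values rest on 73 to 139 counts, and the exact Poisson 95% interval of the lowest, 1.24 to 1.98 CPM, covers counting error only. The log2 fold change was 0.39 at 24 against 3 months (SE 0.26, adjusted p = 0.756) and 0.03 at 30 against 3 months (SE 0.27, adjusted p = 0.990, edgeR). The 95% interval of the latter, -0.58 to 0.63, leaves room for a Pax7 level at 30 months from 0.671 to 1.55 times that at 3 months. In whole muscle, a difference in the number of satellite cells and a difference in RNA per cell cannot be told apart.

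Myf5, an early commitment factor that resting satellite cells also transcribe, had 1.30 and 1.06 CPM at 3 months, 1.36 and 1.01 at 12, 1.07 and 1.71 at 24, and 0.922 and 1.47 at 30 months. The spread within an age was as wide as the spread between ages, and the ages overlapped throughout. Myf5 had 42 to 88 counts, the fewest of the members, and its log2 fold change at 30 against 3 months was 0.03 with a 95% interval of -0.75 to 0.81. Resting satellite cells transcribe both Pax7 and Myf5, and Pearson's r of their log2 CPM was -0.36 over 8 libraries. It is given as a description, and at counts this low it does not show whether the 2 genes go together.

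Cdh15 had 11.6 and 16.5 CPM at 3 months, 15.7 and 26.4 at 12, 16.3 and 19.1 at 24, and 20.5 and 15.5 at 30 months. The level was highest in replicate 2 at 12 months and lowest in replicate 1 at 3 months. The log2 fold change at 12 against 3 months was 0.58 (SE 0.27, adjusted p = 0.899), and without replicate 2 at 12 months it was 0.16. Cdh15 was the 1 member that followed the library sets: the 3 libraries with kidney genes below 1 CPM had 19.1 to 26.4 CPM and the other 5 had 11.6 to 16.5, a separation that 8.28% of all genes tested also showed in this direction. With the library set as a term in the model, the log2 fold change at 12 against 3 months was 0.31 (adjusted p = 0.757).

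The promoter of Cdh15 is shown as that of the 1 member of 9 that separated the library sets, which is not particular to Cdh15. Of all genes tested, 8.28% separated them in this direction and 7.36% in the other. Myogenic factors and clock regulators both bind E-boxes, the latter mostly the form CACGTG. The 300 bases from RefSeq (GRCm38.p6, chr8:122848124-122848423, plus strand, 250 before to 50 after the start site) hold 4 words CANNTG, in capitals, 1 of them CACGTG, 32 bases before the RefSeq start. That start lies inside the gene as the count files define it, so the whole window lies within the span given above:
Cdh15: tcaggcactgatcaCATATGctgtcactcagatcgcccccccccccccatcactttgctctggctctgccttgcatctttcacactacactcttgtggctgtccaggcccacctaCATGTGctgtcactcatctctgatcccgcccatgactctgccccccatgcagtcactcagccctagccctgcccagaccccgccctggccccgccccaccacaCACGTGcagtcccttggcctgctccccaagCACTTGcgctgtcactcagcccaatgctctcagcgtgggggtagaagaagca
CACGTG, which reads the same on both strands and is 1 form of CANNTG, occurred in 7.15% of the 32841 promoter windows of this length, and 6.49% held 4 or more words CANNTG. A match is a description of letters and not a binding site, and a link between clock regulators and the Cdh15 level was not tested. Promoter windows were matched for 7 of the 9 members, all but Myod1 and Myf6. Cdh15 was the 1 of those 7 with CACGTG, too few windows to set against the share of all windows.

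Myod1, the factor that commits cells to the muscle lineage, had its highest means at 12 and 24 months, a difference that did not pass the test. Its level was 15.5 and 15.6 CPM at 3 months, 19.2 and 31.0 at 12, 18.8 and 25.5 at 24, and 17.1 and 13.9 at 30 months. Both 12-month and both 24-month libraries lay above all 4 of the others. The share of all genes with this split was not counted, so the split cannot be weighed. The means at 3 and 30 months were about the same, 15.6 ± 0.0543 and 15.5 ± 2.24 CPM (SD, n = 2 each). The log2 fold change was 0.69 at 12 against 3 months (SE 0.24, adjusted p = 0.864) and -0.69 at 30 against 12 months (SE 0.24, adjusted p = 0.859), with 95% intervals of 0.15 to 1.23 and -1.23 to -0.15. Across the 4 ages the adjusted p was 0.827 with edgeR as described, 0.445 with DESeq2 and 0.0208 with edgeR when genes of low counts were kept, a setting that called 1.4% of 33615 genes. Of the 6 tests, that was the 1 in which any alternative called a member.

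Replicate 2 at 12 months carried much of the height. Without it Myod1 had a log2 fold change of 0.29 at 12 against 3 months (adjusted p = 1.00) and of -0.30 at 30 against 12 months (adjusted p = 0.999). Within the 5 libraries with kidney genes above 1 CPM, Myod1 was 0.46 lower (log2) at 30 than at 12 months, and within the other 3 it was 0.86 lower. Each set has 1 library at each of these ages, and both 12-month libraries were above both 30-month ones, so the signs follow from the values given above and only the sizes are added here. With the set as a term, the 30 against 12 month difference was -0.66 with a smaller SE of 0.13 (adjusted p = 0.0685), beside 0.281% of all genes called. No 3-month library had kidney genes below 1 CPM, so in that set the difference between 3 and 12 months has no value.

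**Figure D4:**
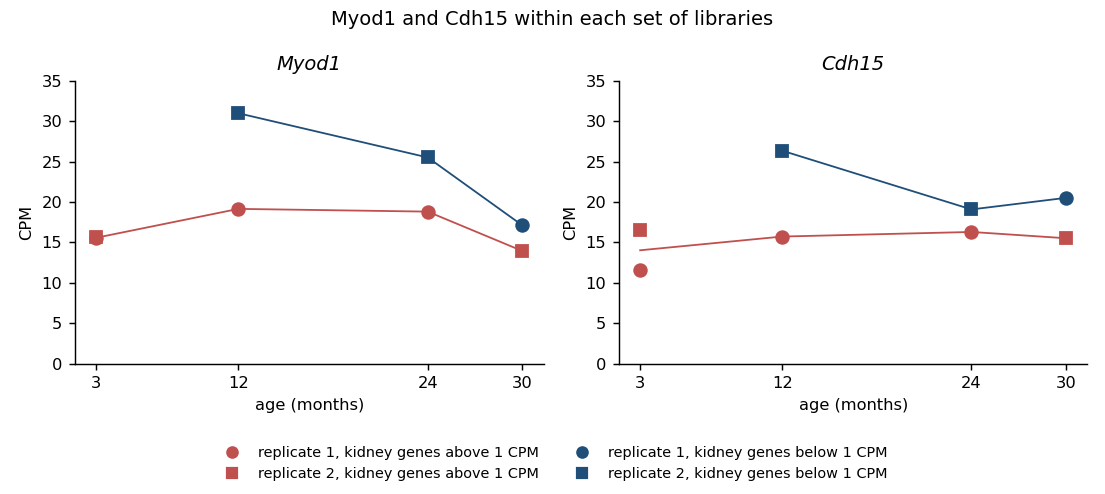
Myod1 and Cdh15 (CPM) by age in months, with lines joining means within each set of libraries (red, summed kidney genes above 1 CPM; blue, below). Myod1 goes from 19.2 to 13.9 CPM in the red set and from 31.0 to 17.1 CPM in the blue set between 12 and 30 months.

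Myog differed more between the 2 libraries of the oldest age than between any of the 6 younger ones. Its level was 4.47 and 3.47 CPM at 3 months, 3.52 and 4.46 at 12, 4.10 and 5.86 at 24, and 4.04 and 10.6 at 30 months. Replicate 2 at 30 months, with 564 counts, stood above all others, while replicate 1 at that age, with 184 counts, lay inside the range of the younger muscles. The log2 fold change at 30 against 3 months was 0.89 (SE 0.41, adjusted p = 0.614), 0.03 without replicate 2 at 30 months (adjusted p = 0.992) and 1.42 without replicate 1 (adjusted p = 0.101, edgeR). The 95% interval of the first, -0.05 to 1.82, corresponds to 0.968 to 3.54 times the 3-month level. The slope of log2 level on age was 0.03 per month (adjusted p = 0.454) and 0.0092 per month without replicate 2 at 30 months (adjusted p = 0.761).

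The Myog promoter is shown because Myog is the member with the widest range, 3.06 times from lowest to highest library. In the RefSeq window (GRCm38.p6, chr1:134289754-134290053, plus strand) the capitals mark 2 words CANNTG, 138 and 12 bases before the start site; 39.6% of all promoter windows hold at least 2.
Myog: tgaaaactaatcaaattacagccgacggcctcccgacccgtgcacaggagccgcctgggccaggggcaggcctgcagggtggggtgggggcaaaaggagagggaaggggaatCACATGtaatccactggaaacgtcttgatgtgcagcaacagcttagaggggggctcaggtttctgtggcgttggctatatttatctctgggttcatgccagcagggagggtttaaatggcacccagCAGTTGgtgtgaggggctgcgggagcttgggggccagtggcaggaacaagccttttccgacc
No other promoter of a member but those of Cdh15 and Mef2c, of the 7 matched, held any CANNTG, a word present in 72.3% of windows.

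Other genes of fusion and early differentiation were also highest in replicate 2 at 30 months. That held for 12 of the 20 tested genes of that list and for 16.5% of all genes. Myh3, the embryonic myosin heavy chain, had 56.6 CPM there and 9.22 to 19.8 in the other 7 libraries. The following genes were singled out after their values were seen. Mymk, which encodes the membrane protein myomaker needed for myoblast fusion, had 64 counts there (1.20 CPM) and 1 to 38 elsewhere. Mymx, its partner myomixer, had 50 counts and 1 to 10 elsewhere, too few to be tested. Chrng, the foetal gamma subunit of the acetylcholine receptor, had 1.45 CPM against at most 0.253. The receptor subunits Chrna1 and Chrnd stood at 23.2 and 3.795 CPM against at most 15.3 and 2.24, and the proliferation marker Mki67 at 4.30 against at most 2.13. Because these genes were picked for their height in that single library of 2, they add no support to the Myog value. The rest of the 20 tested genes of the list were highest in other libraries. Igfbp5 had 308 CPM in replicate 2 and 691 in replicate 1 at 30 months, and Dysf had 70.3 and 119.5. Replicate 2 at 30 months also had the highest level of all 10 macrophage genes and the lowest muscle fibre sum. The part of these cells in the Myog level was not tested.

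**Figure D5:**
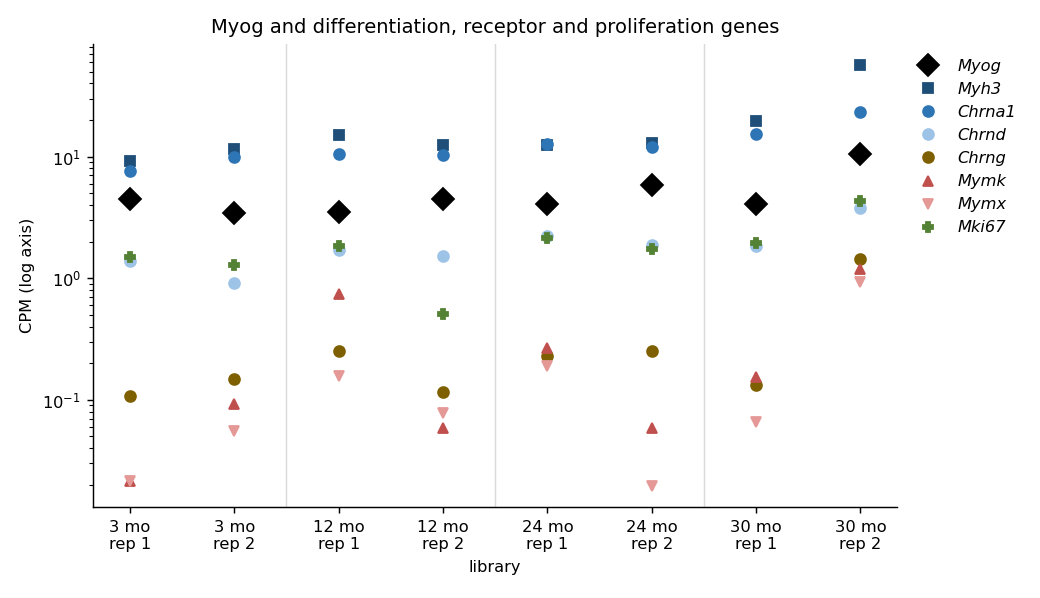
Myog (diamonds) and 7 other genes (CPM, log axis) in each of the 8 libraries. All 8 genes have their highest value in replicate 2 at 30 months, where Myog is at 10.6 CPM and Myh3 at 56.6 CPM. Genes other than Myog and Myh3 were singled out after their values were seen. Of the 20 tested genes of the fusion and early differentiation list, 12 were highest in that library.

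Myf6, the factor of mature fibres, was the steadiest of the members, with a highest library 1.44 times the lowest. Its level was 55.2 and 55.5 CPM at 3 months, 58.6 and 59.4 at 12, 51.5 and 74.2 at 24, and 57.4 and 68.4 at 30 months. Both 12-month and both 30-month libraries were above both 3-month ones, and the 24-month pair held the lowest and the highest value of all. The log2 fold change at 30 against 3 months was 0.18 with a 95% interval of -0.24 to 0.61 (adjusted p = 0.865, edgeR), a range of 0.847 to 1.52 times the 3-month level.

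The MEF2 genes were the most abundant members in counts. Mef2a had 120.1 and 113 CPM at 3 months, 118 and 115 at 12, 129 and 172 at 24, and 141 and 112 at 30 months. Mef2c, a MEF2 gene that fibres express strongly, had 668 and 610 CPM at 3 months, 727 and 698 at 12, 700.1 and 948 at 24, and 837 and 697 at 30 months. Both were highest in replicate 2 at 24 months and next in replicate 1 at 30 months. They also varied together, with the highest Pearson's r of any pair of members, 0.91 over 8 libraries, given as a description over libraries that share depth and tissue makeup. The log2 fold changes at 24 against 3 months were 0.37 for each (adjusted p = 0.687 for Mef2a and 0.712 for Mef2c), and at 30 against 3 months 0.12 and 0.26. Mef2d had 65.1 and 93.6 CPM at 3 months, 78.3 and 95.4 at 12, 93.2 and 88.8 at 24, and 99.5 and 76.4 at 30 months. Its ages overlapped, its log2 fold change at 30 against 3 months was 0.15 (95% interval -0.33 to 0.63), and it varied with Cdh15 (r = 0.81) more than with Mef2c (r = 0.26).

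The wider circuits around the members were read through lists of genes, compared between 30 and 3 months. In the model without further terms no gene of any list was called, where 0.148% of all genes were. Among 18 genes of the satellite cell surface and niche, 10 fold changes were positive and 8 negative with a median log2 fold change of 0.09. Cd82, a tetraspanin of satellite cells, had 8.01 and 7.25 CPM at 3 months and 14.2 and 14.5 at 30 months (log2 fold change 0.91, adjusted p = 0.106), the closest of that list to the threshold. Ncam1, an adhesion molecule, and Sdc3, a heparan sulphate proteoglycan, had log2 fold changes of 0.63 (adjusted p = 0.423) and 0.53 (adjusted p = 0.517). The 13 genes of the Notch pathway, which keeps satellite cells at rest, split into 6 positive and 7 negative with a median of -0.00013. The ligands Dll4 and Jag2 and the receptor Notch3 came nearest in that list, at 0.55, 0.43 and 0.43 (adjusted p of 0.622, 0.626 and 0.628).

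Of 17 E proteins and inhibitors of basic helix-loop-helix factors, 13 fold changes were positive and the median was 0.04. Mdfi, which encodes an inhibitor of MyoD family proteins, had 0.151 and 0.297 CPM at 3 months and 0.856 and 0.545 at 30 months (log2 fold change 1.61, adjusted p = 0.298). Twist2 and Id1, both inhibitors of myogenic factors, had -1.13 (adjusted p = 0.390) and -0.69 (adjusted p = 0.657). Id1 had 9.96 and 9.12 CPM at 3 months and 3.29 and 8.47 at 30 months, and without replicate 2 at 30 months it fell by 1.53 on the log2 scale (adjusted p = 0.0290, where 0.205% of all genes were called). In the fusion and early differentiation list 15 of 20 fold changes were positive with a median of 0.44; Chrna1, Myh3 and Chrnd had 1.13 (adjusted p = 0.128), 1.88 (adjusted p = 0.211) and 1.31 (adjusted p = 0.298). Of 22 tested MEF2 coregulators, 11 were positive and 11 negative with a median of 0.01. Mamstr, a coactivator of MEF2, had 4.88 and 6.41 CPM at 3 months and 18.9 and 10.1 at 30 months (log2 fold change 1.36, adjusted p = 0.309); Vgll2 and the class II histone deacetylase Hdac4 had 0.62 and 0.54 (adjusted p of 0.378 and 0.499). All 10 tested proliferation genes had positive fold changes with a median of 0.67, and 8 of the 10 were highest in replicate 2 at 30 months; Ccna2, Ccnd1 and Mki67 had 0.91, 0.64 and 1.18 (adjusted p of 0.523, 0.602 and 0.615).

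With the library set as a term, which called 2.13% of all genes for 30 against 3 months, some of these genes passed while all 9 members stayed uncalled. Cd82 (log2 fold change 0.95, adjusted p = 0.0150) and Ncam1 (0.77, adjusted p = 0.0420) rose, 2 of 18 genes of the satellite cell list. In the fusion and early differentiation list (the fusion list below), 6 of 20 were called higher: Mymk, Myl4, Cdkn1a, Chrna1, Chrnd and Igf2. Mymk had 1 and 5 counts at 3 months and 7 and 64 at 30 months. Without the term, Cdkn1a had a log2 fold change of 0.17 (adjusted p = 0.971, edgeR). Mamstr and Vgll2 were called higher among MEF2 coregulators (2 of 22), and Mki67 among proliferation genes (1 of 10). No gene of the Notch list (0 of 13) or of the E protein and inhibitor list (0 of 17) passed. Macrophage genes rose in the same fit (6 of 10, Lyz2 among them), and their summed level was 388 CPM in replicate 2 at 30 months. With the set as a term and without that library, which left 0.548% of all genes called, Igf2 alone remained called in the fusion list, Dll4 rose in the Notch list, Id1 fell in the inhibitor list, and no gene of the satellite cell, MEF2 coregulator, proliferation or macrophage lists passed. Fold changes in that fit were not all smaller: the median was 0.67 for the macrophage list (9 of 10 positive) against 0.85 with the library, and 0.41 for the fusion list (15 of 20 positive) against 0.39. With 1 library left at 30 months the lost calls do not show that the differences came from the library left out.

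Genes of other cells of the muscle were measured as well. The summed level of 10 endothelial genes, led by Cdh5 and Vwf, was 229 to 309 CPM. That of 10 pericyte and smooth muscle genes, led by Des and Abcc9, was 2562 to 4365 CPM. Des, which is also a fibre gene, had 1809 to 3564 CPM and made up most of the latter sum. That sum is therefore no measure of pericytes and smooth muscle alone. Notch3, of the same list, is also in the Notch list. The 10 fibroadipogenic progenitor genes, led by Dcn and Col1a1, summed to 676 to 1530 CPM. In none of these lists, nor among fibre, kidney or clock genes, was a gene called for 30 against 3 months in the model without further terms, beside 0.148% of all genes.

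The genes whose log2 CPM went most like a member's over the 8 libraries were found for 4 members, among 9653 genes (9654 for Pax7) with a mean log2 CPM of at least 2; r is Pearson's and is a description. For Pax7 these were Mylip (r = 0.94) and Lmf1 (r = 0.94), and for Myod1 Psme3 (r = 0.98) and Dpf3 (r = 0.96). Psme3, like Myod1, was lowest in replicate 2 at 30 months (29.9 CPM) and highest in replicate 2 at 12 months (37.6 CPM). For Myog they were Rnf213 (r = 0.98) and Ifih1 (r = 0.97), a sensor of viral RNA; Ifih1 had 13.6 CPM in replicate 2 at 30 months and 7.40 to 10.7 elsewhere. For Myf6 they were Polr3b (r = 0.94) and Rab3gap1 (r = 0.94).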

How the data were processed

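Total RNA of frozen gastrocnemius was isolated with Trizol and libraries were built with NEBNext Ultra reagents, per the labels' protocols. Each of the 8 deposited files holds whole, unnormalized counts for 49315 Ensembl genes. The submitters' processing notes name Trimmomatic 0.36, STAR 2.5.2b, featureCounts and Subread 1.5.2, and the builds GRCm38 and mm10, without their roles. The sources used here do not state the annotation release, the strand setting or how multiply mapped reads were treated. Symbols came from the GRCm38 annotation GENCODE M21 (48970 identifiers matched).

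Counts were fitted in R 4.3.3 with edgeR 4.0.16: filterByExpr on age, TMM, and a robust quasi-likelihood model that held all 8 libraries. With the ages as levels it left 4 residual degrees of freedom. The slope model, with age in months as a number, has fewer terms and left more. Standard errors are the log2 fold change over the square root of F, and 95% intervals use the model's degrees of freedom. The scripts were tested on simulated data. Levels are TMM-scaled CPM. Counting precision is an exact Poisson interval. Same-age libraries differed by far more than sampling noise, so none was merged.

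The members and lists were chosen with earlier results of these data known. The text names all members, the 3 tested genes of each pathway list with the lowest unadjusted p at 30 against 3 months, the 2 most abundant genes of each list of other cells, and the 2 genes most like each of 4 members (clone and predicted names left out). The results of 1 list of other cells are not reported here. Alternatives were DESeq2 1.42.0, library totals alone or RLE factors for scaling, keeping genes of low count, the library set (9 kidney genes summing to above or below 1 CPM) as a term, a replicate block, only the 4 libraries compared, and leaving out each library. The library set together with leaving out replicate 2 at 30 months was added after seeing the data. Sequences came from GRCm38 and RefSeq (GRCm38.p6) tables, and motifs were searched on both strands.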

Additional observations from a re-analysis of the deposited data

How the results depend on the processing

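No member was called in any of the 6 tests under the main settings or the alternatives, except that edgeR without the low-count filter called 1 member, Myod1, across the 4 ages (adjusted p = 0.0208; 0.107 to 1.00 under the other alternatives). Of 711 signed values of single members under an alternative (pairwise fold changes and slopes, without the across-ages test, which has no sign), 648 kept their sign and 63 took the other; none of the 711 had an adjusted p under 0.05. The cause of these changes was not tested. Over all genes, 30 against 3 months gave 29 calls as described, 214 with DESeq2, 378 with no low-count filter, 13 with the replicate block and 416 with the set term.

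At 12 against 3 months the log2 fold change took the other sign for Myf5 (-0.019) and Myog (-0.040) with library totals alone, and for Mef2a (0.0046) with no low-count filter; at 30 against 3 months it did so for Myod1 (0.0095) with library totals alone, and for Pax7 (-0.010) and Mef2a (-0.0090) with the library set as a term, as did the slope of Cdh15 (-0.00032 per month) with that term. With the set term and without replicate 2 at 30 months, the values were -0.040 for Myf5, -0.21 for Myog and -0.037 for Myf6 at 12 against 3 months; -0.015 for Pax7, -0.48 for Myf5, -0.40 for Myog and -0.22 for Myf6 at 30 against 3 months; -0.44 for Myf5, -0.19 for Myog and -0.18 for Myf6 at 30 against 12 months; and slopes of -0.0010 for Myf5, -0.0021 for Myf6 and -0.0020 for Cdh15.

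Leaving out 1 library at a time, where an age's single remaining library is taken to spread as the others do, the log2 fold changes that changed sign ranged as follows. At 12 against 3 months they were -0.0086 to 0.49 for Pax7, -0.21 to 0.20 for Myf5, -0.18 to 0.20 for Myog, -0.044 to 0.045 for Mef2a and -0.11 to 0.42 for Mef2d. At 24 against 3 months they were -0.14 to 0.55 for Myf5, -0.11 to 0.42 for Myf6 and -0.044 to 0.48 for Mef2d. At 30 against 3 months they were -0.15 to 0.25 for Pax7, -0.34 to 0.32 for Myf5, -0.16 to 0.14 for Myod1, -0.060 to 0.28 for Mef2a and -0.091 to 0.44 for Mef2d. At 30 against 12 months they were -0.46 to 0.030 for Pax7, -0.36 to 0.30 for Myf5, -0.039 to 0.21 for Myf6, -0.55 to 0.20 for Cdh15, -0.060 to 0.28 for Mef2a, -0.036 to 0.23 for Mef2c and -0.19 to 0.20 for Mef2d. Slopes per month ranged from -0.0037 to 0.0087 for Pax7, -0.00054 to 0.013 for Myf5, -0.010 to 0.0082 for Myod1, -0.0029 to 0.014 for Cdh15 and -0.0013 to 0.012 for Mef2d.

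The replicate numbers did not pair the libraries: the difference between replicates 1 and 2 correlated across genes at -0.36 to 0.26 between ages, so the block is a check and not a pairing. With the replicate block 0 members were called in each of the 6 tests, and the sign changed for Myog at 12 against 3 months (-0.039), Myod1 at 30 against 3 months (0.0043) and Myf5 at 30 against 12 months (-0.012). Depth limits Pax7 and Myf5 most, with 42 to 139 counts a library.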
